A study of Homo sapiens with 3 samples.

Results

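The lysosome is the compartment in which a cell digests proteins, glycans and lipids, and 40 genes of its machinery were followed here: 17 hydrolases, 2 precursors of soluble cofactors, 6 membrane proteins, 12 subunits of the proton pump V-ATPase and the 3 transcription factors TFEB, TFE3 and MITF. The genes were taken from a list of symbols that was chosen with earlier results of these data known. No threshold on their values entered the choice. A probe set annotated to exactly 1 gene was found for 38 of the 40, and all 38 had a signal above the filter described here, out of 12321 genes tested and 19775 with such a probe set. The remaining members, GLB1 (beta-galactosidase) and ATP6V1F (a V1 subunit), were not analysed here, because each was read through probe sets annotated to a pair of genes.

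The cells were HCT-116, a human colorectal cancer line. The study compared SCD1-WT cells given DMSO, SCD1-WT cells given the SCD1 inhibitor T-3764518, and SCD1-KO cells, to ask how gene expression responds when stearoyl-CoA desaturase 1, which makes monounsaturated fatty acids, is inhibited or absent. The labels give 24 h for both SCD1-WT arrays and name the compound only as an SCD1 inhibitor; the dose, 100 nM, and the use of DMSO on the SCD1-KO cells come from the study's methods. The SCD1-KO cells were a line selected after CRISPR-Cas9 editing, so a single knockout line stands for the genotype, and SCD1-KO cells given T-3764518 were not analysed here.

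Lysosomal hydrolases are made in the endoplasmic reticulum and carried to the lysosome by mannose 6-phosphate receptors, and most of them work only in the acid lumen that the V-ATPase maintains. The V-ATPase couples ATP hydrolysis by its V1 sector in the cytosol to proton transport through its V0 sector in the membrane. TFEB, TFE3 and MITF form the MiT/TFE family of basic helix-loop-helix factors, which bind E-box DNA with the letters CACGTG and, in many lysosomal promoters, the longer letters TCACGTGA. They are held in the cytosol by mTORC1-dependent phosphorylation when nutrients are plentiful, so their activity is not read from their own mRNA.

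These letters stood in promoters of hydrolases, membrane proteins and V-ATPase subunits. Of the 40 members, 30 matched a promoter in RefSeq (GRCh38.p14), taken from 250 bases before to 50 bases after the start of the gene. CTSB, HEXA, ASAH1, PSAP, LAMP2, ATP6V0E1, ATP6V1A, ATP6V1B2, ATP6V1C1 and ATP6V1H were not matched. CACGTG was found in 10 of the 30 (33.3%) against 8.77% of all genes with a promoter, 12.6% of the tested ones and 7.26% of all 35116 promoter windows. TCACGTGA, which contains CACGTG, was found in 6 of the 30 (20.0%) against 1.18% of all genes with a promoter, 2.23% of the tested ones and 0.980% of all windows. Both motifs are palindromes, so both strands give the same matches. The 6 members with TCACGTGA are shown because they cover a hydrolase of each of 2 kinds, a marker of the lysosomal membrane, its calcium channel and both sectors of the pump. Each sequence is 30 bases, 5′ to 3′ on the strand of the gene, with the motif in capitals.
LAMP1: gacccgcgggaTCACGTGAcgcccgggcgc
MCOLN1: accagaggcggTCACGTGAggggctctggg
CTSA: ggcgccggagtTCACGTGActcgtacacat
GAA: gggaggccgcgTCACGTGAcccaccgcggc
ATP6V0D1: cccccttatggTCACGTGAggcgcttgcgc
ATP6V1G1: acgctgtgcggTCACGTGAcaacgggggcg
The LAMP1 stretch lies at chr13:113297199-113297228 on the plus strand, with the motif 29 to 22 bases before the start, and the MCOLN1 stretch at chr19:7522571-7522600 on the plus strand, 42 to 35 bases before it. The CTSA stretch lies at chr20:45891298-45891327 on the plus strand, 26 to 19 bases before the start, and the GAA stretch at chr17:80101493-80101522 on the plus strand, 77 to 70 bases before it. The pump genes ATP6V0D1 and ATP6V1G1 hold theirs at chr16:67481199-67481228 on the minus strand and chr9:114587699-114587728 on the plus strand, 60 to 53 and 59 to 52 bases before the start. LAMP1, MCOLN1 and GAA had 2 matches each. A further 4 members, CD63, CTSD, M6PR and NEU1, held CACGTG without the longer motif. A match is a description of the letters and no evidence of binding.

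Each condition had 1 array, so no difference has a replicate check, no p-value was computed, and the number of arrays limits the precision. Each gene is read by 1 or more probe sets, whose MAS5 signals are fluorescence intensities; signals of different probe sets are not levels that can be set against each other, so genes are compared here by their ratios. Probe sets were filtered on brightness: those whose log2 signal, averaged over the arrays, reached the midpoint of the whole array (56.6 in signal) were kept. The value of a gene is the median of the log2 ratios that its kept probe sets gave. Where signals or ratios follow each other, they are in the order DMSO, T-3764518, SCD1-KO, the ratios being to DMSO. A gene is called higher or lower at 1.5-fold, a log2 ratio of 0.58. The arrays shared a trimmed mean signal of 500.1, with medians of 68.8 (DMSO), 56.7 (T-3764518) and 62.4 (SCD1-KO). Markers of colon epithelium were kept for 7 of 8 genes and those of leukocytes for 0 of 4, with a summed leukocyte signal of 83.8 to 104 per array. Those of fibroblasts were kept for 2 of 3, with summed signals of 1212 to 1513 led by COL1A1 at 1089.7 to 1409, and those of endothelium for 1 of 3, PECAM1, at 249, 253 and 142. LGALS4 was not kept and CDX2 and VIL1 were dim, at 59.6 to 115 and 68.5 to 85.8. EPCAM was at 16859, 17224 and 6840.1 and CDH1 at 5038, 6686 and 1285 on the DMSO, T-3764518 and SCD1-KO arrays; the part of this difference between the lines in the lysosomal ratios was not tested. SCD itself, at a geometric mean of 2907, 14919 and 5506 over its 4 kept probe sets, gave no check of the knockout, since its transcript can still be read.

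Most lysosomal genes, like most genes, lay within 1.5-fold of the DMSO array in both states. With T-3764518, SMPD1 and TFE3 were higher and CTSB and CTSH lower, 2 and 2 of 38, where 6.62% of all tested genes were higher and 12.3% lower. In SCD1-KO cells, GLA, SMPD1 and TFE3 were higher and CTSH and ATP6V1B2 lower, 3 and 2 of 38, where 9.95% of all tested genes were higher and 11.4% lower. In all, 6 members (15.8%) passed 1.5-fold in 1 or both ratios and 32 in neither, where 32.6% of all tested genes passed it in 1 or both; the brightness of the members, which bears on this share, is described next. At 2-fold, the count was 1 member, SMPD1 in SCD1-KO cells, where 3.12% of all genes were higher and 3.93% lower; with T-3764518 it was 0, where 2.18% were higher and 3.3% lower, and 1 under each of the other scalings. For the members, scaling to 1 median gave 3 higher (NEU1 in addition) and 1 lower with T-3764518, and 5 higher and 1 lower in SCD1-KO cells. Scaling the arrays to 1 median in place of the deposited scaling changed the background with T-3764518 to 15.9% higher and 4.92% lower, and in SCD1-KO cells to 15.0% and 7.89%. Quantile normalization gave 8.92% and 8.32% with T-3764518, and a lowess correction 9.20% and 7.86%.

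The members' probe sets were bright, and bright genes passed 1.5-fold less often on these arrays. When all tested genes were split into 5 equal parts by mean signal, 27 of the 38 members fell into the 2 brightest. In those parts, 11.1% of all genes passed 1.5-fold with T-3764518 and 13.5% in knockout cells, against 18.9% and 21.4% of all tested genes. Of the 27 bright members, 2 (7.41%) and 3 (11.1%) did. The log2 ratios of probe sets that read a common gene scattered with SDs of 0.59 (T-3764518) and 0.63 (SCD1-KO) among the dimmest genes and of 0.23 (both) among the brightest. Such an SD covers neither the spread between cultures nor that between arrays.

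**Figure D1:**
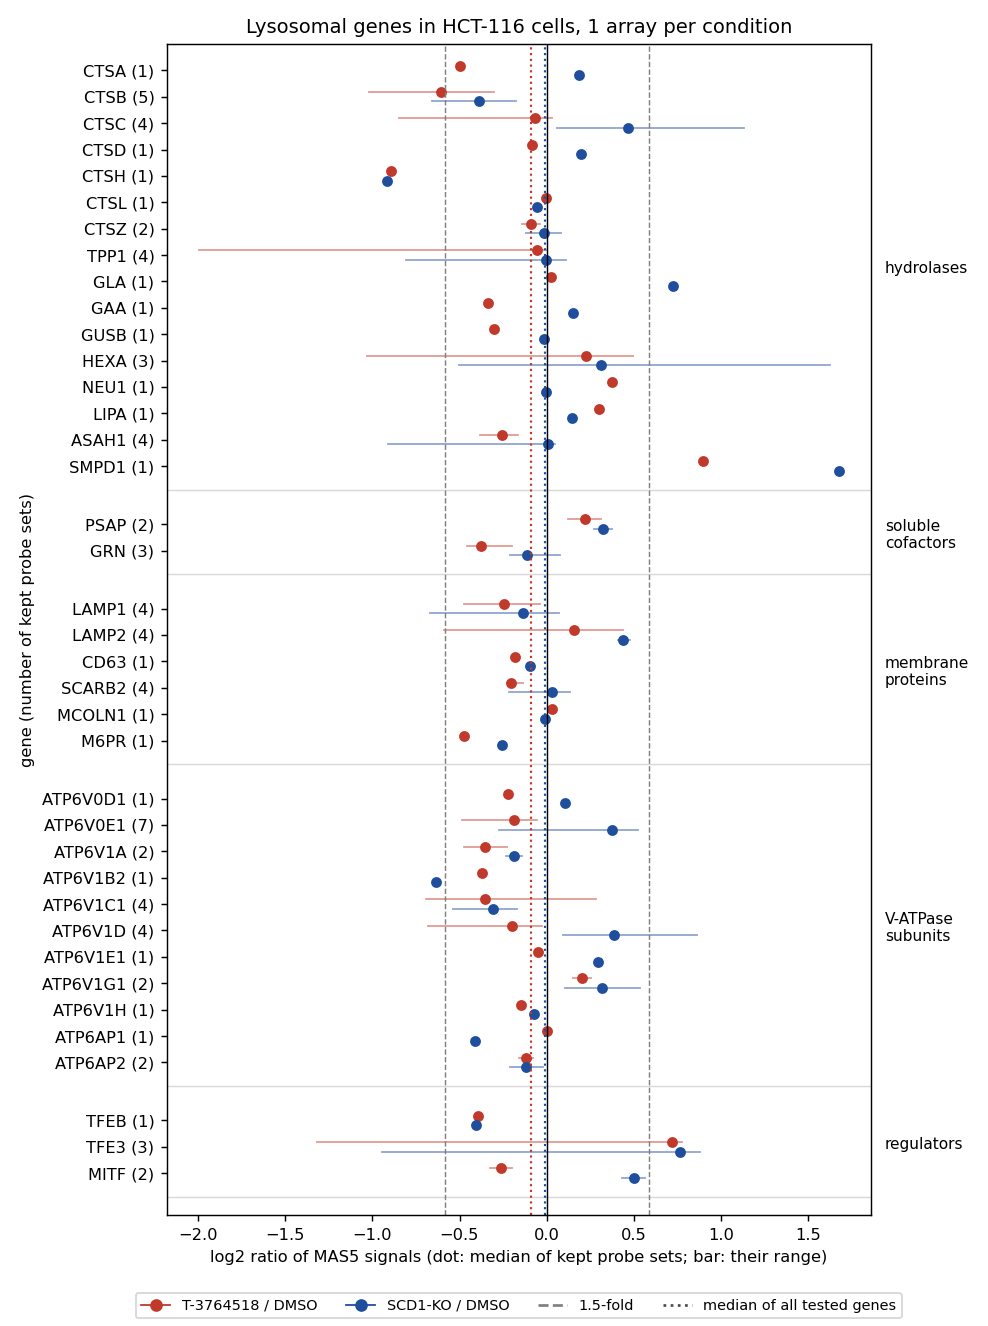
Log2 ratio of MAS5 signals to the DMSO array for each of the 38 tested members, with T-3764518 in red and SCD1-KO in blue; dots are medians over kept probe sets (their number in brackets), bars the range between probe sets, dashed lines 1.5-fold and dotted lines the medians of all tested genes. Most dots lie between the dashed lines, SMPD1 in SCD1-KO cells reaches 1.68, and the bars of TFE3 cross 0.

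Among the hydrolases, the proteases were near or under the DMSO level with T-3764518. All 8 tested proteases had log2 ratios below 0 there, from -0.89 to -0.0055 with a median of -0.088, beside -0.087 for all tested genes; scaling to 1 median turned both medians to 0.19 and left 3 of the 8 below 0. CTSH, a cysteine aminopeptidase, was read at 1657 with DMSO, 892.6 with T-3764518 and 878 in knockout cells by its single probe set. Both states lay well under the DMSO array and close to each other, with log2 ratios of -0.89 and -0.92, or 0.539 and 0.530 of the DMSO signal. CTSB, the abundant cysteine protease cathepsin B, had 5 kept probe sets. They read 5526, 4045 and 4229, then 7273, 5902 and 6429.7, then 2418, 1193 and 1670.4, then 965, 634 and 754, and finally 1065, 570.3 and 675 on the DMSO, T-3764518 and SCD1-KO arrays. Every CTSB probe set was lowest with T-3764518 and highest with DMSO. The log2 ratios ran from -1.02 to -0.30 with T-3764518 (median -0.60) and from -0.66 to -0.18 in knockout cells (median -0.39), so that the gene passed 1.5-fold only with T-3764518. Under quantile normalization, scaling to 1 median, a lowess correction or the brightest probe set, CTSB no longer passed it.

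The other proteases stayed within 1.5-fold. CTSA, protective protein/cathepsin A, which stabilises beta-galactosidase and neuraminidase, was read at 2452 with DMSO, 1737 with T-3764518 and 2789.6 in knockout cells, so the inhibitor array was the lowest. Its log2 ratios were -0.50 and 0.19. CTSC, which activates granule serine proteases, gave ratios of -0.066 and 0.47, and its 4 probe sets differed. They read 577, 591 and 1268, then 1025, 1036 and 1771, then 1441, 1301 and 1499, then 114, 63.6 and 126. In all 4 the SCD1-KO array was the highest, and their log2 ratios to DMSO there ran from 0.058 to 1.14. CTSD, the aspartic protease cathepsin D, had ratios of -0.085 and 0.20, and CTSL, a cysteine endopeptidase, -0.0055 and -0.054. CTSZ, a carboxypeptidase, had ratios of -0.091 and -0.017. TPP1, tripeptidyl peptidase, was at -0.057 and -0.0045, although its dimmest probe set read 127.5, 32.0 and 73.0.

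Among the glycosidases, the member past 1.5-fold was GLA. GLA, alpha-galactosidase A, was read at 1482 with DMSO, 1506 with T-3764518 and 2446 in knockout cells. Its signal was level between the SCD1-WT arrays and 1.65-fold higher in SCD1-KO cells, with log2 ratios of 0.022 and 0.72. NEU1, the sialidase, showed the other order, at 1003, 1301 and 1002 with log2 ratios of 0.37 and -0.0011, within 1.5-fold; scaling to 1 median took the first to 0.65, past it. GAA, which digests glycogen, was read at 1359, 1077 and 1506, with ratios of -0.34 and 0.15. GUSB, beta-glucuronidase, had ratios of -0.30 and -0.017. HEXA, the alpha subunit of beta-hexosaminidase, had ratios of 0.23 and 0.31, and its bright probe set read 939, 1099 and 1165; the dim ones ran from -1.03 to 0.49 and from -0.51 to 1.62.

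The largest member ratio was that of a lipid hydrolase. SMPD1, the acid sphingomyelinase that turns sphingomyelin into ceramide, was read at 59.6 with DMSO, 111 with T-3764518 and 190.4 in knockout cells. The arrays were thus ordered DMSO, T-3764518, SCD1-KO, with log2 ratios of 0.90 and 1.68, or 1.86-fold and 3.19-fold. That probe set was dim and the only one kept of 4. The other probe sets read 9.8, 12.0 and 7.67, then 60.7, 2.4 and 18.4, then 24.4, 17.7 and 46.5, and they showed no common order. With no signal filter, the SMPD1 ratios became -0.085 and 0.29. ASAH1, acid ceramidase, the next enzyme of this route, had ratios of -0.26 and 0.0064. LIPA, lysosomal acid lipase, which frees fatty acids and cholesterol from the esters of lipoproteins and lipid droplets, was read at 3592, 4428 and 3980.1. It was highest with T-3764518, with ratios of 0.30 and 0.15.

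Over the 16 tested hydrolases the median was -0.075 with T-3764518 and 0.077 in knockout cells on the log2 scale, beside -0.087 and -0.011 for all tested genes; scaling to 1 median turned the first to 0.20 and moved the second to 0.22, with all tested genes at 0.19 and 0.13. Of these 16, 1 was higher and 2 lower with T-3764518, beside 6.62% and 12.3% of all tested genes. In SCD1-KO cells 2 were higher and 1 lower, beside 9.95% and 11.4%. The precursors of soluble cofactors were within 1.5-fold. PSAP, whose saposins present sphingolipids to the hydrolases, was read at 8789, 10903 and 11383 by one probe set and at 14061, 15336 and 16971 by the other, both lowest with DMSO. Its log2 ratios were 0.22 and 0.32. GRN, progranulin, had ratios of -0.38 and -0.11.

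**Figure D2:**
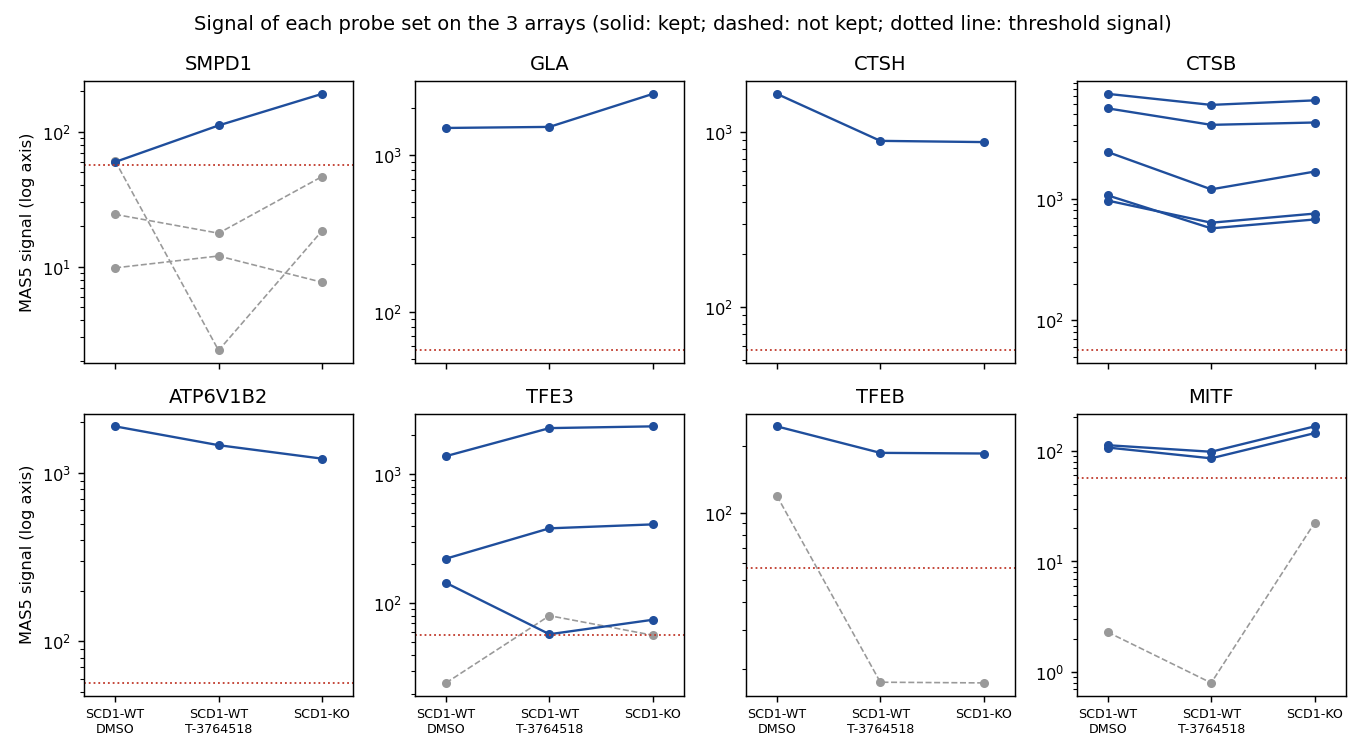
MAS5 signal (log axis) of each probe set on the 3 arrays for the 6 members past 1.5-fold and the other regulators; blue solid lines are kept probe sets, grey dashed lines are not kept and the dotted line is the threshold signal of 56.6. The 5 CTSB probe sets share 1 order of arrays, whereas 1 of the 3 kept TFE3 probe sets is lower where the others are higher, and SMPD1 rests on 1 probe set near the threshold.

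None of the 6 membrane proteins passed 1.5-fold in either ratio, where 32.6% of all tested genes passed it in 1 or both. Of 18 further lysosomal membrane proteins that were tested outside the members, 7 (38.9%) did. A list of 6 genes is too short for this count to set it apart. LAMP1 and LAMP2, the heavily glycosylated proteins that line the lysosomal membrane, had log2 ratios of -0.25 and -0.14 for LAMP1, which scaling to 1 median turned to 0.034 and 0.0049, and of 0.15 and 0.44 for LAMP2. The brightest LAMP1 probe set read 11047 with DMSO, 9695 with T-3764518 and 11269.6 in knockout cells. All 4 LAMP2 probe sets were above DMSO in SCD1-KO cells, from 0.41 to 0.48, the brightest at 2825, 3154 and 3826. With T-3764518 they ran from -0.59 to 0.44. The tetraspanin CD63 had ratios of -0.18 and -0.098, and SCARB2, the receptor that carries glucocerebrosidase to the lysosome, -0.21 and 0.031. MCOLN1, the calcium channel of the lysosomal membrane, was almost level at 267, 273 and 265. M6PR, the cation-dependent mannose 6-phosphate receptor, was read at 1157, 833 and 969.8 (-0.47 and -0.25), lowest with T-3764518. The group's median was -0.20 with T-3764518, which scaling to 1 median turned to 0.084, and -0.054 in SCD1-KO cells, which it turned to 0.086 and the brightest probe set to 0.0091.

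The V-ATPase subunits among the members lay within 1.5-fold with T-3764518. Of the 11 tested, 9 had ratios below 0 and none passed 1.5-fold, with a range of -0.37 to 0.20 and a median of -0.19, which scaling to 1 median turned to 0.090, with 3 below 0. Of all 12321 tested genes, 7268 had ratios below 0, and 3820 after that scaling. On the deposited scale, 18.9% of them passed 1.5-fold, and 11.1% of those in the 2 brightest parts. In SCD1-KO cells the subunits ran from -0.64 to 0.39 with a median of -0.072, and 6 were below 0; scaling to 1 median turned the median to 0.068 and leaving out _s_at and _x_at probe sets to 0.041. ATP6V1B2, the widely expressed isoform of subunit B in the V1 ring, was read at 1887 with DMSO, 1459 with T-3764518 and 1214 in knockout cells. It was the one member subunit past 1.5-fold, at 0.643 of the DMSO signal in SCD1-KO cells, where 11.4% of all tested genes were lower. Its log2 ratios were -0.37 and -0.64. Scaling to 1 median brought it within 1.5-fold. ATP6V1A, the catalytic subunit of the ring, had ratios of -0.35 and -0.19. The 10 other tested V-ATPase subunits, outside the members, ran from -0.99 to 0.33 with T-3764518. Of these, 3 were lower by 1.5-fold, beside 12.3% of all tested genes. They were ATP6V0E2 and, from the dimmest of the 5 parts, ATP6V0D2 and ATP6V1C2. In that part 36.6% of all genes passed 1.5-fold with T-3764518.

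Other member subunits went the opposite way in SCD1-KO cells. The V0 genes ATP6V0D1 and ATP6V0E1 had ratios of -0.22 and -0.19 with T-3764518 and of 0.11 and 0.37 in SCD1-KO cells. ATP6V0E1 was read by 7 probe sets, all below DMSO with T-3764518 (-0.49 to -0.055) and 6 of them above it in SCD1-KO cells, the brightest at 6769, 5937 and 9358. The stalk subunits of V1 gave ratios of -0.20 and 0.39 for ATP6V1D, -0.052 and 0.30 for ATP6V1E1 and 0.20 and 0.32 for ATP6V1G1. Those of ATP6V1C1 were -0.35 and -0.31, and those of ATP6V1H, which regulates the coupling of the sectors, -0.15 and -0.072. The accessory protein ATP6AP1 was read at 3030.3, 3034 and 2279, level between the SCD1-WT arrays and lowest in SCD1-KO cells (0.0016 and -0.41). ATP6AP2, the other accessory protein, had ratios of -0.12 and -0.12.

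The 3 regulators did not move together. TFEB was read at 246, 187 and 186 by its kept probe set, lower than DMSO in both states within 1.5-fold (-0.40 and -0.41). Its other probe set, not kept, read 119.8, 17.4 and 17.3. TFE3 was at 1376, 2267 and 2338 by its brightest probe set and at 222, 381 and 408 by the next, both about equally high in the 2 states. The remaining kept probe set read 144, 57.8 and 74.8, the other way round, with log2 ratios of -1.32 and -0.95, and a probe set that was not kept read 24.3, 80.4 and 56.7. The median gave TFE3 ratios of 0.72 and 0.76, or 1.65-fold and 1.70-fold, but when probe sets ending in _s_at or _x_at, designed to read more than 1 transcript, were left out, they were -0.30 and -0.091. MITF was read at 107, 85.5 and 144 and at 112, 98.0 and 166, lowest with T-3764518 and highest in SCD1-KO cells by both probe sets; one that was not kept read 2.3, 0.8 and 22.4. Its ratios of -0.26 and 0.50 stayed within 1.5-fold, which the second passed after scaling to 1 median.

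**Figure D3:**
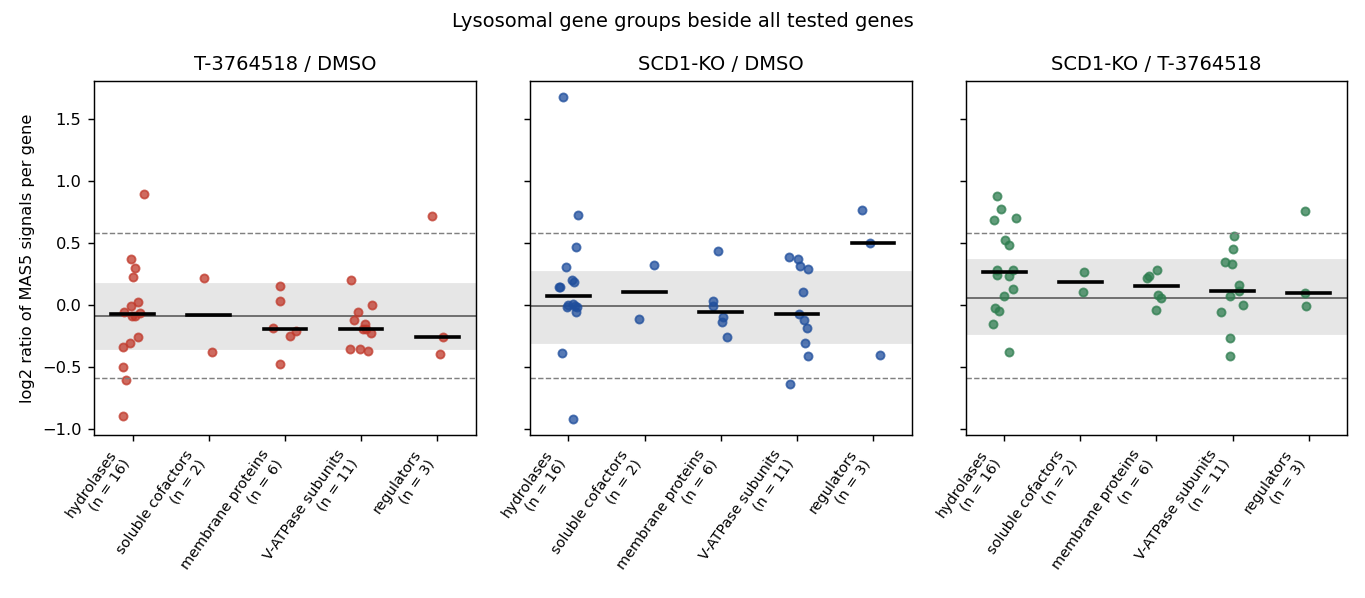
Log2 ratio of MAS5 signals per gene in the 5 groups of members for T-3764518 over DMSO, SCD1-KO over DMSO and SCD1-KO over T-3764518; points are genes, black bars group medians, the grey band and line the quartiles and median of all tested genes, and dashed lines 1.5-fold. The group medians of hydrolases, membrane proteins and V-ATPase subunits lie inside the grey band in each panel.

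Since both ratios share the DMSO array, the states were compared directly. In SCD1-KO cells over SCD1-WT cells with T-3764518, 5 of 38 members were higher by 1.5-fold (14.2% of all tested genes) and 0 lower (9.08% of all); scaling to 1 median gave 3 higher and 0 lower, GLA and CTSA being lost, beside 9.55% and 13.7% of all genes, and quantile normalization 4 and 0, MITF being lost, beside 10.7% and 11.3%. On the deposited scale they were CTSC, SMPD1, MITF, GLA and CTSA, with log2 ratios of 0.88, 0.78, 0.76, 0.70 and 0.68. CTSC lies under 1.5-fold against DMSO, where its probe sets gave 0.058, 0.14, 0.79 and 1.14 in SCD1-KO cells. In the direct comparison they ran from 0.20, by the brightest, to 1.10. The dimmest, at 63.6 with T-3764518, gave 0.99. Each median was taken over the probe sets for its own ratio. Of the 38 members, 29 were above 0, where 6797 of 12321 genes were; after scaling to 1 median these counts were 20 and 5219. The members' median was 0.19 beside 0.057 for all tested genes, and 0.053 beside -0.081 after scaling to 1 median. By group the medians were 0.26 for hydrolases, 0.15 for membrane proteins, 0.12 for V-ATPase subunits and 0.10 for regulators. Scaling to 1 median turned that of the V-ATPase subunits to -0.023 and that of the regulators, the TFE3 value, to -0.038. ATP6AP1, NEU1 and ATP6V1B2 were the lowest, at -0.41, -0.38 and -0.27, and CTSH, TFEB and ATP6AP2 were level, at -0.023, -0.0095 and 0.0024.

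**Figure D4:**
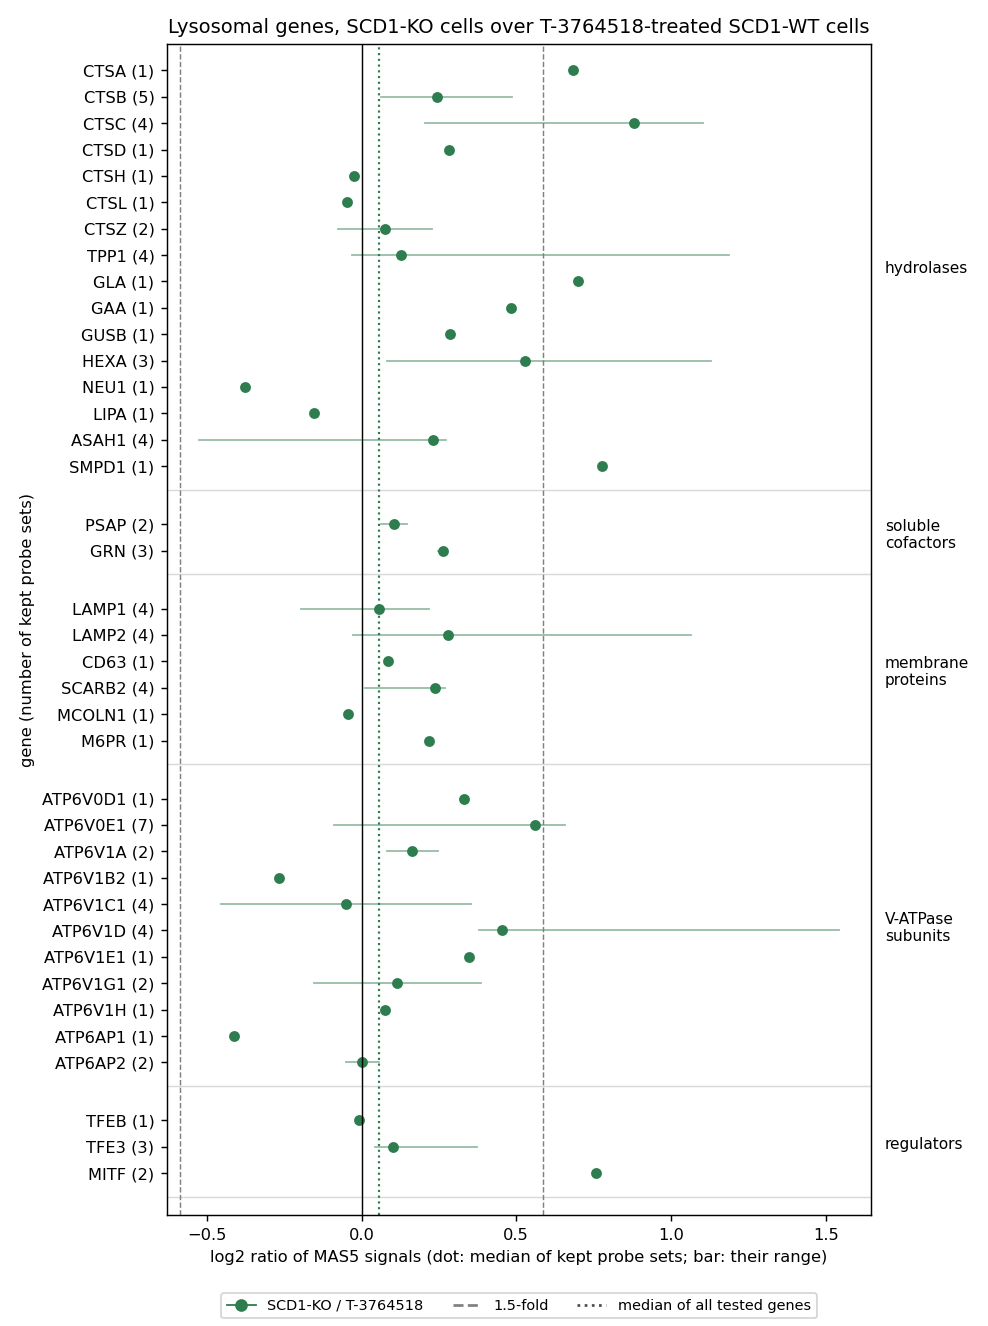
Log2 ratio of MAS5 signals in SCD1-KO cells over SCD1-WT cells with T-3764518 for the 38 tested members; dots are medians over kept probe sets, bars their range, dashed lines 1.5-fold and the dotted line the median of all tested genes, 0.057. Most members lie right of 0, and no dot lies left of the lower dashed line.

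The members with TCACGTGA lay within 1.5-fold in both states, where 18.9% (T-3764518) and 21.4% (SCD1-KO) of all tested genes passed it. All of them but MCOLN1 lay in the 2 brightest parts, where 11.1% and 13.5% of genes passed it. The 6 log2 ratios with T-3764518 ran from -0.50 (CTSA) to 0.20 (ATP6V1G1) with a median of -0.23. In SCD1-KO cells they ran from -0.14 (LAMP1) to 0.32 (ATP6V1G1) with a median of 0.13. After scaling to 1 median, CTSA (-0.22) and GAA (-0.056) stayed below 0 with T-3764518. LAMP1 (0.034), ATP6V0D1 (0.056), MCOLN1 (0.31) and ATP6V1G1 (0.48) were then above 0. On the deposited scale, the tested members whose promoter lacked TCACGTGA had medians of -0.088 and -0.0028. Over all 10032 tested genes with a promoter, the 224 with TCACGTGA had medians of -0.11 and 0.0051, and the others -0.083 and -0.0059.

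The wider lysosome had a share of genes past 2-fold near that of all tested genes, 8 of 61 (13.1%) beside 10.8% in 1 or both ratios. Of 78 further hydrolases, cofactors, membrane proteins, sorting factors and V-ATPase subunits, 61 were tested, and their medians were -0.17 with T-3764518, which scaling to 1 median turned to 0.11, and 0.063 in knockout cells. With T-3764518, 4 of the 61 (6.56%) were higher and 10 (16.4%) lower by 1.5-fold, beside 6.62% and 12.3% of all tested genes; scaling to 1 median made this 6 and 5. In SCD1-KO cells 8 (13.1%) were higher and 6 (9.84%) lower, beside 9.95% and 11.4%, and scaling to 1 median made this 11 and 3. NPC1, which exports cholesterol from the lysosome, passed 2-fold with T-3764518 (log2 ratios 1.23 and 0.74), its bright probe set reading 1532, 5609.9 and 3502. LAMP3, a lysosomal glycoprotein of restricted tissues, was read at 532, 1128 and 561, high on the T-3764518 array alone. TPCN1, a cation channel of endosomes and lysosomes, had ratios of 0.86 and 1.03 from probe sets that differed, one at 1.60 and 1.61 and the other at 0.13 and 0.44. CTSO, a cysteine protease, was read at 172, 65.0 and 204, lowest with T-3764518, and CTSS, dim, at 70.8, 33.8 and 96.0, or at least 1.25-fold lower.

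Other genes passed 2-fold in SCD1-KO cells. IDUA, which digests heparan and dermatan sulfate, was read at 262, 273 and 690.2, high in SCD1-KO cells alone (1.40). SIAE, a sialic acid esterase, had a ratio of -1.28 there and -0.43 with T-3764518. ATP6V1C2, a V1 subunit of restricted tissues, was read at 201, 125 and 44.9, in SCD1-KO cells under DMSO by a factor of at least 3.55 and under T-3764518 by at least 2.20. Where no gene of a list passed 2-fold, the farthest were GM2A, the GM2 activator (-0.67 and -0.14), beside NPC2, which hands cholesterol to NPC1 (-0.16 and -0.023), and the sorting factors GGA3 (-0.72 and -0.63) and GNPTAB (-0.64 and -0.54), which makes the mannose 6-phosphate tag. The value of GGA3 rests on its dim probe set, at 155, 58.4 and 67.4, since the bright one was level at 570.2, 554 and 549. Among 12 tested genes of the Rag GTPases, Ragulator, folliculin and calcineurin, which set the phosphorylation of TFEB, the median was -0.20 and -0.087, which scaling to 1 median turned to 0.083 and 0.054. FLCN, folliculin, was lower with T-3764518 (-0.84 and -0.15), 1 of 12 beside 12.3% of all genes, with LAMTOR4 next at -0.43 and -0.29. None was higher in either state, whereas scaling to 1 median brought FLCN within 1.5-fold and FNIP1 and RRAGC past it. RRAGD, a further Rag GTPase, and FNIP2, a folliculin partner, were counted with the MiT/TFE targets below and not in this list. In SCD1-KO cells both were lower by 1.5-fold (-0.79 and -0.75), and FNIP2 was also lower with T-3764518 (-0.64).

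Known MiT/TFE targets that were listed apart from the lysosomal lists ranged from -0.64 to 1.49 with T-3764518 and from -1.06 to 1.22 in knockout cells. Of 9 tested, 3 were higher and 1 lower by 1.5-fold with T-3764518, beside 6.62% and 12.3% of all tested genes, and 3 were higher and 3 lower in SCD1-KO cells, beside 9.95% and 11.4%. Scaling to 1 median made these 5 and 0, and 4 and 3. The list was chosen with earlier results of these data known, so these counts are no test of the targets. With T-3764518, the autophagy genes WIPI1, MAP1LC3B and SQSTM1 had the highest ratios. In SCD1-KO cells the highest was VPS18 (1.22). WIPI1 lay just within 1.5-fold there, at 1.49-fold, and its 2 probe sets gave 1.31-fold and 1.69-fold. WIPI1, which binds phosphatidylinositol 3-phosphate on forming autophagosomes, was read at 1274, 3058 and 1668 and at 935, 3064 and 1585, highest with T-3764518 (1.49 and 0.57). MAP1LC3B, the LC3 protein of the autophagosome membrane, was read at 4062, 9178 and 6722 and at 3778, 10794 and 9176 (1.35 and 1.00). SQSTM1, the cargo receptor p62, had ratios of 1.22 and 0.95, its brightest probe set reading 5398, 14529 and 10373. For all 3 genes the direct ratio was below 0, at -0.91 for WIPI1, -0.34 for MAP1LC3B and -0.33 for SQSTM1. It was below 0 for 8 of the 9 tested targets, where 5524 of all 12321 tested genes were. The other targets were UVRAG, of the Beclin complex (0.42 and 0.12), the vesicle tethering subunits VPS18 (0.48 and 1.22, dim) and VPS11 (-0.23 and -1.06), RRAGD, a Rag GTPase (-0.27 and -0.79), FNIP2, a partner of folliculin (-0.64 and -0.75), and GPNMB, a glycoprotein (0.18 and -0.18).

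**Figure D5:**
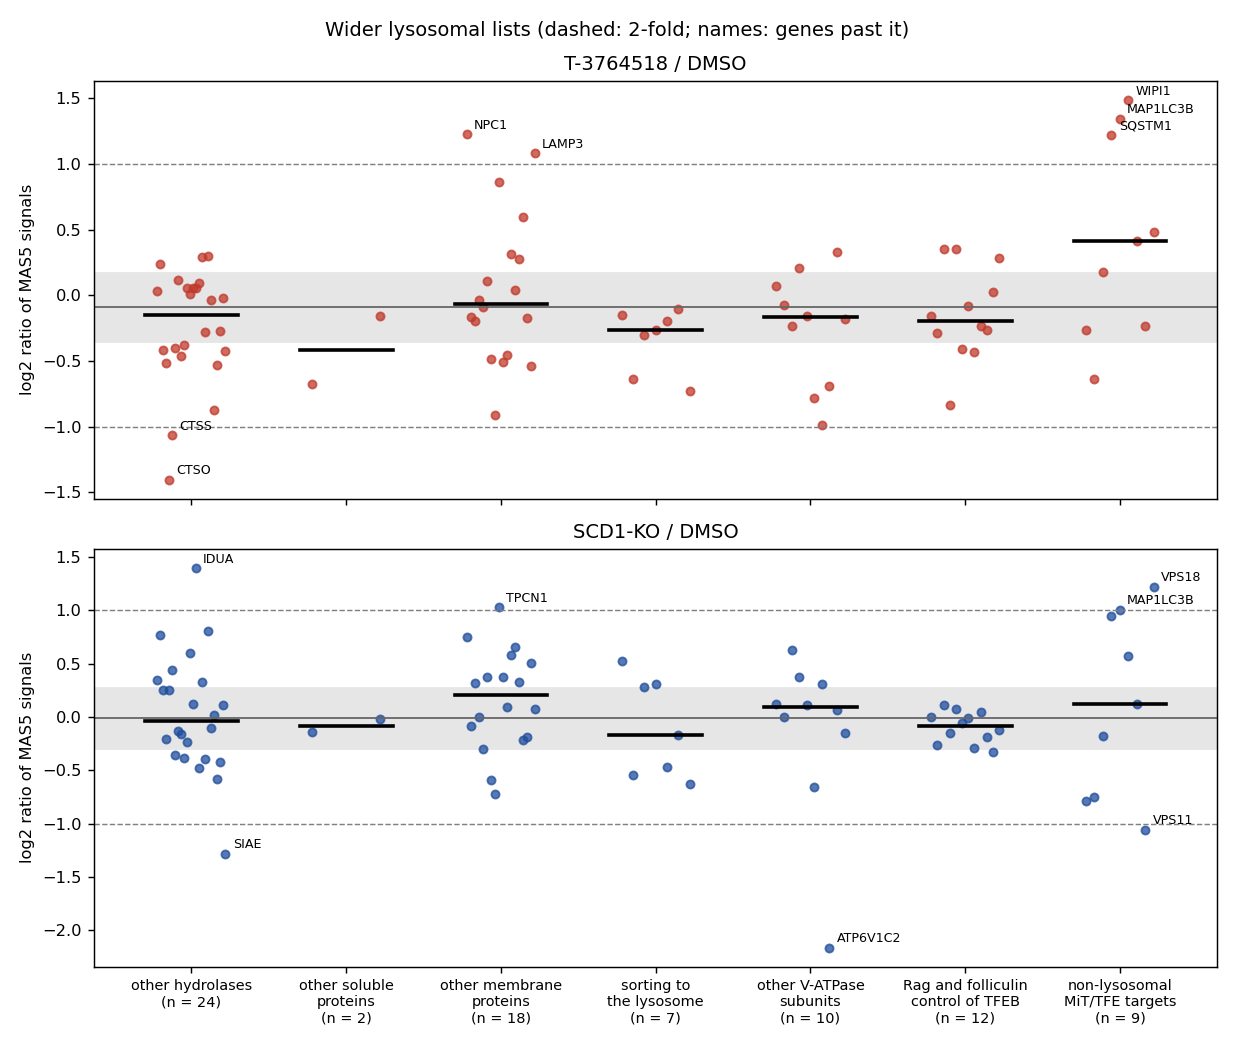
Log2 ratio of MAS5 signals for T-3764518 over DMSO (top) and SCD1-KO over DMSO (bottom) in 7 further lists of genes; points are genes, black bars list medians, the grey band and line the quartiles and median of all tested genes, and dashed lines 2-fold, past which genes are named. The separate list of MiT/TFE targets, labelled non-lysosomal, reaches 1.49 at WIPI1 with T-3764518. The Rag and folliculin list stays within -0.84 to 0.35 in the top panel.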

How the data were processed

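The authors extracted total RNA from HCT-116 cells and deposited 1 signal intensity per probe set of the Human Genome U133 Plus 2.0 Array on a linear scale. The submitters' processing notes name MAS5, with the version not given in the sources used here, and its detection calls were not used here. The 3 arrays were grouped by their labels.

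From these signals on, Python 3.11.15 was used, with matplotlib 3.10.9 for figures and numpy 2.4.6, pandas 2.3.3, statsmodels 0.14.6 and scipy 1.17.1 for values. Of 54675 probe sets, 41091 carried 1 gene symbol in the platform annotation and 1801 several. Of these 41091, 23192 were kept, and of the 97 that belonged to members, 84. For a signal under 56.6, a fold is a bound ("at least") computed with 56.6 in its place.

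The members and lists were chosen with earlier results of these data known. All signals are given for members past 1.5-fold in either ratio, the regulators and members with probe sets past it on opposite sides; signals of other members were picked after their values were seen. Of the wider lists, genes past 2-fold or the 2 farthest from 0 were named, and all tested genes of the separate list of MiT/TFE targets. The spread of a single gene was taken as the SD over its probe sets pooled over all genes (0.39 for T-3764518, 0.40 for SCD1-KO), and that of a median was scaled by the number of genes. Results were recomputed after scaling to 1 median, quantile normalization or a lowess correction (span 0.3), with no filter or one at percentile 75, an offset of 16.5, the brightest probe set or the mean, without _s_at or _x_at probe sets, and at a 2-fold threshold.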

Additional observations from a re-analysis of the deposited data

How the results depend on the processing

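No paired analysis was possible because each condition had 1 array, and no array could be left out. Of 80 group medians recomputed under 10 alternatives, 7 moved by more than their spread. Scaling to 1 median gave 0.20 for hydrolases, 0.084 for membrane proteins and 0.090 for V-ATPase subunits with T-3764518, and 0.22 for hydrolases in SCD1-KO cells; it shifts every ratio alike, so distances from the median of all genes did not change. Without probe sets marked _s_at or _x_at the hydrolase median with T-3764518 was -0.29 over 12 genes, and the regulator median in SCD1-KO cells -0.091. A filter at percentile 75 left 1 regulator, TFE3, at 0.72 with T-3764518.

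Members higher with T-3764518 numbered 3 under scaling to 1 median (NEU1 in addition), 1 with no signal filter, with the filter at percentile 75 and with the mean of probe sets, and 0 without _s_at or _x_at probe sets or at 2-fold. Those lower numbered 1 (CTSH) under quantile normalization, scaling to 1 median, a lowess correction and the brightest probe set, 4 with no signal filter (GUSB and TFEB in addition) and 0 at 2-fold. In SCD1-KO cells, 5 members were higher under scaling to 1 median (CTSC and MITF in addition), 1 without _s_at or _x_at probe sets (GLA) and 1 at 2-fold. The lower members there numbered 1 under scaling to 1 median, 4 with no signal filter and 0 at 2-fold. For SCD1-KO cells the lower share of all genes was 24.5% with no signal filter, against 11.4%. The higher share was 10.7% without _s_at or _x_at probe sets, against 9.95%. Of 150 recomputed member ratios, 3 reversed: SMPD1 with T-3764518 at -0.085 with no signal filter, and TFE3 at -0.30 and -0.091 without _s_at or _x_at probe sets. A further 5 moved, among them TFEB to -1.59 and -1.60 with no signal filter and TFE3 to 0.060 and 0.23 with the mean. SMPD1 and CTSH gave no value without _s_at or _x_at probe sets, where 3 members were lower with T-3764518 (CTSB, TPP1 and ATP6V1C1) and 2 in SCD1-KO cells (TPP1 and ATP6V1B2). SMPD1, MITF and TFEB gave none with the filter at percentile 75. An offset added to every signal, and dim signals raised to 56.6, an alternative chosen after the data were seen, moved none of these results. The cause of these changes was not tested. SMPD1, MITF and TFEB were read by dim probe sets, where the spread between probe sets is widest.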
